A study of Homo sapiens with 2 samples.

Results

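The mRNAs described here are those of ATF4, the transcription factor of the integrated stress response, and of 9 genes that share its mode of translation or act under its control. They are the rows of the deposited gene table whose symbol is ATF4, ATF5, DDIT3, PPP1R15A, PPP1R15B, IFRD1, SLC35A4, TRIB3, ASNS or CEBPG, which is 10 of 23608 rows. The first 7 are mRNAs known for reading frames upstream of the main one, and the last 3 are known targets of ATF4. Ribosome profiling was set beside RNA sequencing in SW13 cells, an established human adrenal adenocarcinoma line. All cells had been transfected with Add2-Mhrt779 and Add2-Hotair, which by the labels overexpress murine non-coding RNAs, and were collected 48 hours later. By their labels the groups differ in the assay: ribosome profiling, in which RNA outside ribosomes is digested, or sequencing of total RNA. Each assay had 1 library, so no value has a replicate error, and no untransfected or stressed cells were compared.

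The integrated stress response begins when a kinase phosphorylates the initiation factor eIF2, which lowers translation in general. A small set of mRNAs with upstream reading frames is then translated more, ATF4 first among them, and ATF4 switches on genes for amino acid supply, transfer RNA charging and stress control. In unstressed cells the upstream frames of ATF4 hold ribosomes away from its coding sequence. The deposited values are totals over each gene, so ribosomes on an upstream frame and on the main frame count alike.

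The 8 marker genes of adrenal cortex steroid synthesis, among them NR5A1 and STAR, were all listed at 0 in both libraries. Of 8 markers of leukocytes, endothelium and fibroblasts, 4 were listed at 0 in both, and the highest was the lysosomal protein CD68 at 14.6 FPKM in ribosome profiling and 17.6 FPKM in RNA sequencing. FPKM, the authors' unit, is a fragment count scaled to transcript length and to the mapped fragments of the library. Of the low values of long transcripts, 60.9% in ribosome profiling and 67.5% in RNA sequencing fell within 0.1 of a whole multiple of 1 step. The steps correspond to about 1090000 reads in ribosome profiling and 1690000 in RNA sequencing, so the reads behind a value are known roughly and no counting interval is given. Values of 2 steps were more frequent than values of 1, so both mates of a pair may have been counted.

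ATF4 binds DNA together with C/EBP proteins at a composite element, and stretches with this element are shown because it is how targets such as ASNS are known to be reached. Its letters TGATGNAA (TTNCATCA on the other strand) were searched in windows from 250 bases before to 50 bases after each RefSeq gene start, build GRCh38.p14. They occurred in at least 1 window of 4.46% of 27305 genes, of 4 of the 10 genes described here, and of 15 of 37 other listed ATF4 targets with a window. A match is a description of the letters and not a binding site. The matches before the gene starts of ASNS, CEBPG and PPP1R15B are written 5′ to 3′ on the gene's strand with the 8 matching bases in capitals; that of IFRD1 lay after a start. All 3 read in the direction of transcription.
ASNS: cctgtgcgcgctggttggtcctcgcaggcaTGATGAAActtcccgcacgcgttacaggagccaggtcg
CEBPG: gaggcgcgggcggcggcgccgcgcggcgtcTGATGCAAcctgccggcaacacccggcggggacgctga
PPP1R15B: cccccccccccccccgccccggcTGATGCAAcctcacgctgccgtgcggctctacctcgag
The first stretch is chr7:97872439-97872506 on the minus strand and its match begins 68 bases before a start of ASNS. The second is chr19:33374041-33374108 on the plus strand, with the match 42 bases before a start of CEBPG. The third is chr1:204412007-204412067 on the minus strand, with the match 227 bases before the start of PPP1R15B. The letters were not found in the windows of ATF4, ATF5, DDIT3, PPP1R15A, TRIB3 or SLC35A4.

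The question was how the mRNA level and the ribosome signal of each of these genes compare. The ATF4 mRNA was the most abundant of the 10 in total RNA and was not matched by its ribosome signal, while ASNS, the target with the highest level, stood far higher with ribosomes than in total RNA. ATF4 had 21.3 FPKM in ribosome profiling and 36.85 FPKM in RNA sequencing. ASNS had 70.77 FPKM in ribosome profiling and 20.07 FPKM in RNA sequencing. ASNS thus ranked 1 in ribosome profiling and 2 in RNA sequencing, and ATF4 ranked 2 in ribosome profiling and 1 in RNA sequencing. To compare genes, the log2 of the ribosome profiling value divided by the RNA sequencing value, with 1 FPKM added to each, was set against its median over the 2734 tested genes of at least 10 mean FPKM; that gene is called the median gene below. On this scale ASNS lay 2.60-fold above the median gene and ATF4 2.22-fold below it. Of all tested genes, 13.1% lay at least 2-fold above and 19.7% at least 2-fold below. The tested genes include 322 small RNA genes, so these are not shares of mRNAs alone. Among the 2156 with a coding transcript, 10.2% to 27.7% lay at least 2-fold below, depending on the coding share of the transcript.

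**Figure D1:**
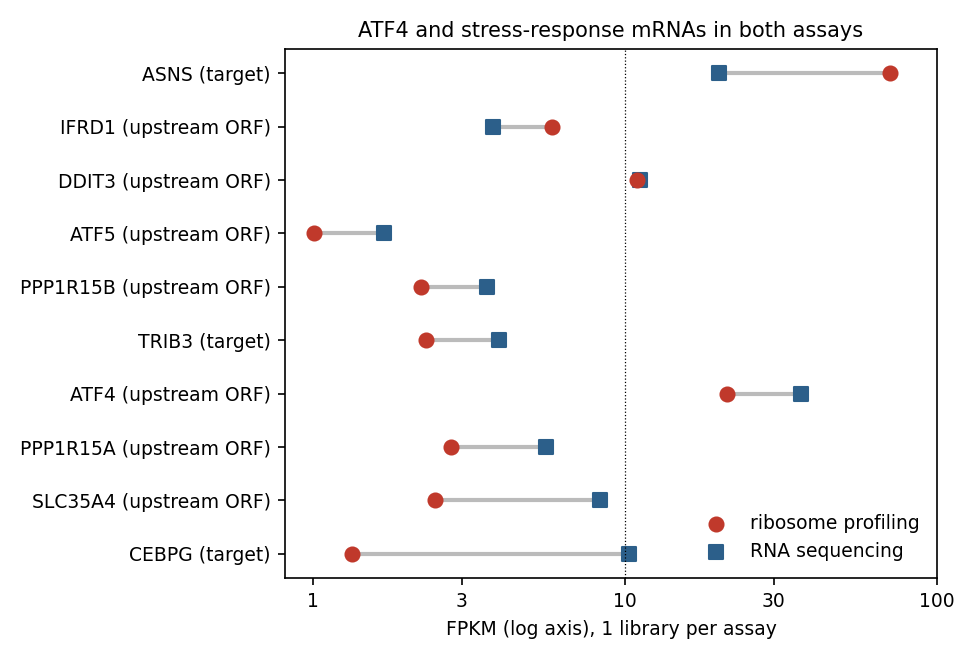
FPKM of the 10 mRNAs in ribosome profiling (circles) and RNA sequencing (squares), 1 library each, on a log axis, ordered by their ratio from ASNS at the top to CEBPG at the bottom; the dotted line marks 10 FPKM. ASNS with 70.77 FPKM in ribosome profiling and 20.07 FPKM in RNA sequencing and IFRD1 with 5.86 FPKM in ribosome profiling and 3.77 FPKM in RNA sequencing are the genes whose circle lies to the right of the square.

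Only ATF4, DDIT3 and ASNS reached a mean of 10 FPKM, and the other 7 lay between 1.35 and 5.84 FPKM, so their ratios rest on few reads. Over all 10, 1 lay at least 2-fold above the median gene, 4 at least 2-fold below, and 5 between. The 4 low ones are ATF4, PPP1R15A, SLC35A4 and CEBPG. Low genes as a whole had low ratios: among rows from 1 to under 10 FPKM the median was -0.71, 38.1% lay 2-fold or more below the median gene and 3.81% lay 2-fold or more above. The 7 genes in that range had 3 at least 2-fold below, which is near that share. The count of 4 became 7 with a pseudocount of 0.1 FPKM and 2 when the ratios were left uncentred. Both libraries are bulk preparations, so fewer cells with an RNA and less of it per cell cannot be told apart.

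The authors' deposited table gives a statistic for each ratio, which implies a model error without any spread between cultures. Of the 10 genes, 6 had the status OK and 4 were marked NOTEST. ASNS was the 1 gene called, and it was higher in ribosome profiling. Of all 4849 rows with status OK in the authors' deposited table, 1.3% were called, and 0.412% were called as higher in ribosome profiling. For ASNS the authors' deposited table lists 1.82 on the log2 scale (standard error 0.51, q = 0.0314). For ATF4 the authors' deposited table lists -0.79 (standard error 0.88, q = 0.691). The difference of ASNS minus ATF4 in the authors' deposited table came to 2.61, and its 95% interval, taking both errors as independent, ran from 0.63 to 4.59. This pair was known to differ before it was chosen, so the interval is a description.

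**Figure D2:**
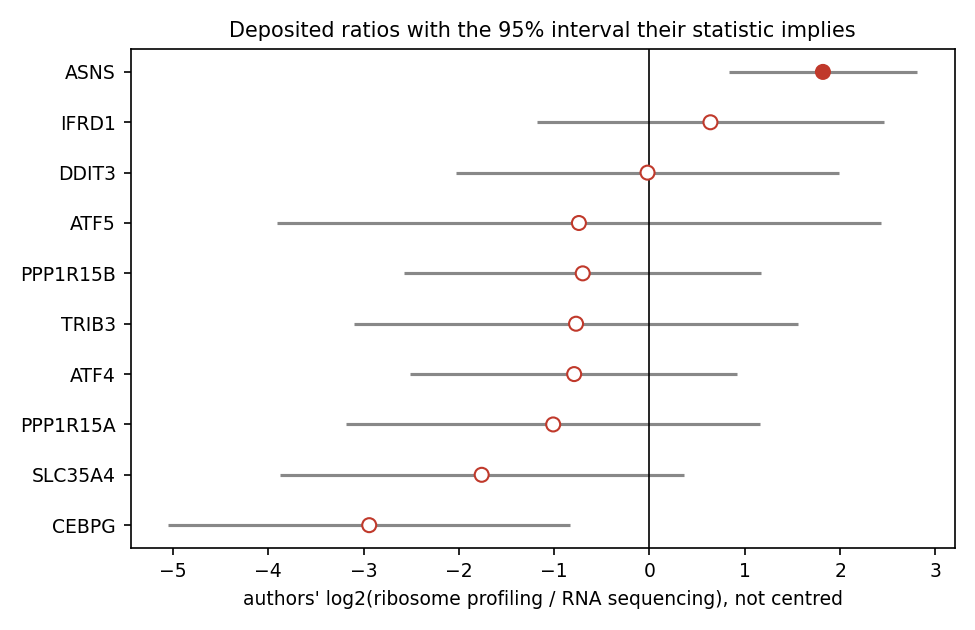
The authors' deposited log2 ratio (ribosome profiling divided by RNA sequencing) for each of the 10 mRNAs, not centred, with the 95% interval that the deposited statistic implies; the filled point was called by the authors. The intervals of ASNS, from 0.83 to 2.81, and CEBPG, from -5.05 to -0.83, leave out 0, and the other 8 include it.

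ATF4 lies on chromosome 22 from 39916569 to 39918691 in the deposited hg19 locus. About 47 reads in ribosome profiling and 126 in RNA sequencing stand behind its values, taking the transcript of 2019 bases. Its ratio of -1.15 stayed below the median gene under 10 other processing settings, at -1.33 to -0.48, and was less than 2-fold below it under some of them. The tested genes closest to ATF4 in both levels were TRAPPC5, SNX3 and CAV1, the coat protein of caveolae. TRAPPC5 had 21.9 FPKM in ribosome profiling and 37.0 FPKM in RNA sequencing. SNX3 had 20.02 FPKM in ribosome profiling and 36.02 FPKM in RNA sequencing, and CAV1 had 20.4 FPKM in ribosome profiling and 34.7 FPKM in RNA sequencing. Their distances were 0.0403, 0.0908 and 0.106 in the plane of both log2(FPKM + 1) values. GENCODE release 29 names 4 pseudogene copies each of ATF4 and ASNS, and none has a row here, so reads of copies and parents may be mixed.

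The other transcription factors with upstream frames differed in level and in ratio. DDIT3, also called CHOP, a C/EBP-family factor that promotes cell death under lasting stress, had 10.97 FPKM in ribosome profiling and 11.15 FPKM in RNA sequencing. It lay 1.33-fold below the median gene, a direction that turned under some alternatives, which ran from -0.59 to 0.26 on the log2 scale. Its locus on chromosome 12, from 57881736 to 57914300, also holds the row of the synthetase gene MARS, and the deposited values do not say how shared reads were split. ATF5, a relative of ATF4 linked to the mitochondrial stress response, was the lowest gene in both assays, with 1.01 FPKM in ribosome profiling and 1.69 FPKM in RNA sequencing. Those values correspond to about 2 reads in ribosome profiling and 6 in RNA sequencing, too few to place its ratio. Its locus is shared with IL4I1, NUP62 and MIR4751.

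The regulatory subunits that direct protein phosphatase 1 to eIF2 both had ratios below the median gene. Both are under 10 mean FPKM, where all rows from 1 FPKM had a median of -0.71. About 7 reads in ribosome profiling stand behind PPP1R15A and 13 behind PPP1R15B. PPP1R15A, or GADD34, the stress-induced subunit, had 2.78 FPKM in ribosome profiling and 5.59 FPKM in RNA sequencing, 2.29-fold below the median gene. PPP1R15B, or CReP, the constitutive subunit, had 2.22 FPKM in ribosome profiling and 3.61 FPKM in RNA sequencing, 1.88-fold below. In the authors' deposited table PPP1R15A stood at -1.01 (standard error 1.11) and PPP1R15B at -0.70 (standard error 0.96). Neither could be told from ATF4 within these errors: in the authors' deposited table PPP1R15A minus ATF4 was -0.22 with an interval from -2.99 to 2.55, and PPP1R15B minus ATF4 was 0.09 with one from -2.45 to 2.63. Of the catalytic subunits they bind, PPP1CA had 34.98 FPKM in ribosome profiling and 17.49 FPKM in RNA sequencing. PPP1CB lay close to the median gene, with 12.4 FPKM in ribosome profiling and 9.39 FPKM in RNA sequencing. PPP1CC had 14.1 FPKM in ribosome profiling and 25.4 FPKM in RNA sequencing, 2.29-fold below the median gene.

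IFRD1 and SLC35A4, both known for upstream frames that matter under stress, had the highest and the lowest ratio of the upstream-frame mRNAs per whole transcript. Their errors are wide, so this order is a description. IFRD1, a transcriptional coregulator also called TIS7, had 5.86 FPKM in ribosome profiling and 3.77 FPKM in RNA sequencing, about 15 reads in each. Its ratio was 0.14, with alternatives from -0.04 to 0.81. SLC35A4, a member of the nucleotide sugar transporter family whose upstream frame encodes a small protein, had 2.47 FPKM in ribosome profiling and 8.36 FPKM in RNA sequencing, 3.53-fold below the median gene. About 8 reads in ribosome profiling and 43 in RNA sequencing stand behind these. In the authors' deposited table SLC35A4 stood at -1.76 (standard error 1.08, q = 0.441). Over the 7 upstream-frame mRNAs the median ratio was -0.91, which is 1.88-fold below the median gene, and ran from -1.10 to -0.23 under the other settings. Of the 7, 6 were below the median gene, DDIT3 not under all settings. All rows from 1 to under 10 FPKM had a median of -0.71.

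Of the 3 targets, ASNS lay above the median gene and CEBPG and TRIB3 below it. Their median ratio was -0.97, which is the value of TRIB3, beside the -0.91 of the 7 upstream-frame mRNAs. About 6 reads in ribosome profiling stand behind TRIB3 and as many behind CEBPG. Both are under 10 mean FPKM, where all rows from 1 FPKM had a median of -0.71. ASNS, asparagine synthetase, the classic gene induced by amino acid lack, lies on chromosome 7 from 97481429 to 97501854. About 182 reads in ribosome profiling and 80 in RNA sequencing stand behind its values, the deepest of the 10 with ribosomes. CEBPG, a C/EBP protein that pairs with ATF4, had 1.34 FPKM in ribosome profiling and 10.33 FPKM in RNA sequencing, 6.33-fold below the median gene and the lowest ratio of the 10. In the authors' deposited table CEBPG stood at -2.94 (standard error 1.08, p = 0.0063), and it was not called at q = 0.181. From the authors' deposited table CEBPG minus ASNS came to -4.76 (95% interval -7.09 to -2.43), a description only, since these are the lowest and the highest ratio of the 10. TRIB3, a pseudokinase that restrains ATF4 and AKT signalling, had 2.31 FPKM in ribosome profiling and 3.94 FPKM in RNA sequencing, a ratio of -0.97 to the median gene. From the authors' deposited table TRIB3 minus ATF4 came to 0.02 (95% interval -2.88 to 2.91).

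Other genes of the pathway were then set beside these 10. Each list is given over its tested genes, and then over its genes of at least 1 mean FPKM, where low ratios were more frequent. The shares of all tested genes beside it are 13.1% at least 2-fold above and 19.7% at least 2-fold below. Those shares take in 322 small RNA genes, while the lists hold mRNAs. Among other ATF4 targets, those for transfer RNA charging and export stood highest: 13 of 13 were tested, 11 lay above the median gene, 1 was at least 2-fold above and none at least 2-fold below, with a median ratio of 0.59. All 13 were tested, so both counts are the same for this list. The glycyl-tRNA synthetase GARS had 46.2 FPKM in ribosome profiling and 16.8 FPKM in RNA sequencing, 2.03-fold above the median gene. The alanyl-tRNA synthetase AARS had 51.8 FPKM in ribosome profiling and 25.8 FPKM in RNA sequencing. The exporter XPOT had 10.39 FPKM in ribosome profiling and 15.99 FPKM in RNA sequencing, 1.95-fold below. Enzymes of amino acid and one-carbon synthesis had 5 of 10 tested, a median of 0.25, 1 at least 2-fold above and none at least 2-fold below. Over all 10 the median was -0.35, with 1 at least 2-fold above, 2 at least 2-fold below and 4 above the median gene. PHGDH, the first enzyme of serine synthesis, had 30.1 FPKM in ribosome profiling and 5.50 FPKM in RNA sequencing, 3.65-fold above the median gene. The filter is on the mean of both assays, and PHGDH passed it through its ribosome profiling value alone. PSAT1, which acts next in that pathway, had 30.9 FPKM in ribosome profiling and 19.5 FPKM in RNA sequencing. The mitochondrial folate enzyme MTHFD2 had 19.2 FPKM in ribosome profiling and 21.5 FPKM in RNA sequencing. None of these was called in the authors' deposited table, where PHGDH stood at 2.45 (standard error 0.91, q = 0.191).

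Amino acid transporters among the targets went both ways, with 4 of 8 tested and a median of 0.11. With a filter of 30 FPKM only SLC38A2 was left, at -0.21. Of the tested 4, 1 was at least 2-fold above and 1 at least 2-fold below. Over the 7 transporters of at least 1 FPKM the median was -0.38, with 1 at least 2-fold above and 2 at least 2-fold below. The heavy chain SLC3A2 and the light chain SLC7A5 form one heterodimeric transporter. SLC3A2 had 41.1 FPKM in ribosome profiling and 14.7 FPKM in RNA sequencing, 2.04-fold above the median gene. SLC7A5 had 4.38 FPKM in ribosome profiling and 19.9 FPKM in RNA sequencing, 5.09-fold below, and passed the filter through its RNA sequencing value alone. The glutamine carriers SLC38A2 and SLC1A5 lay close to the median gene. SLC38A2 had 52.1 FPKM in ribosome profiling and 40.4 FPKM in RNA sequencing, and SLC1A5 had 18.4 FPKM in ribosome profiling and 11.6 FPKM in RNA sequencing. Stress regulators had 4 of 16 tested and a median of 0.15, and 1 of the 4 was at least 2-fold below. With a filter of 30 FPKM only SQSTM1 and DDIT4 were left, with a median of -0.03. Over the 13 of at least 1 FPKM the median was -0.26, with 1 at least 2-fold above, 4 at least 2-fold below and 4 above the median gene. The autophagy receptor SQSTM1 had 80.4 FPKM in ribosome profiling and 46.7 FPKM in RNA sequencing. The mTORC1 inhibitor DDIT4 had 39.6 FPKM in ribosome profiling and 31.8 FPKM in RNA sequencing. The translation repressor EIF4EBP1 had 5.26 FPKM in ribosome profiling and 16.02 FPKM in RNA sequencing, 3.56-fold below. It too passed the filter through its RNA sequencing value alone.

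**Figure D3:**
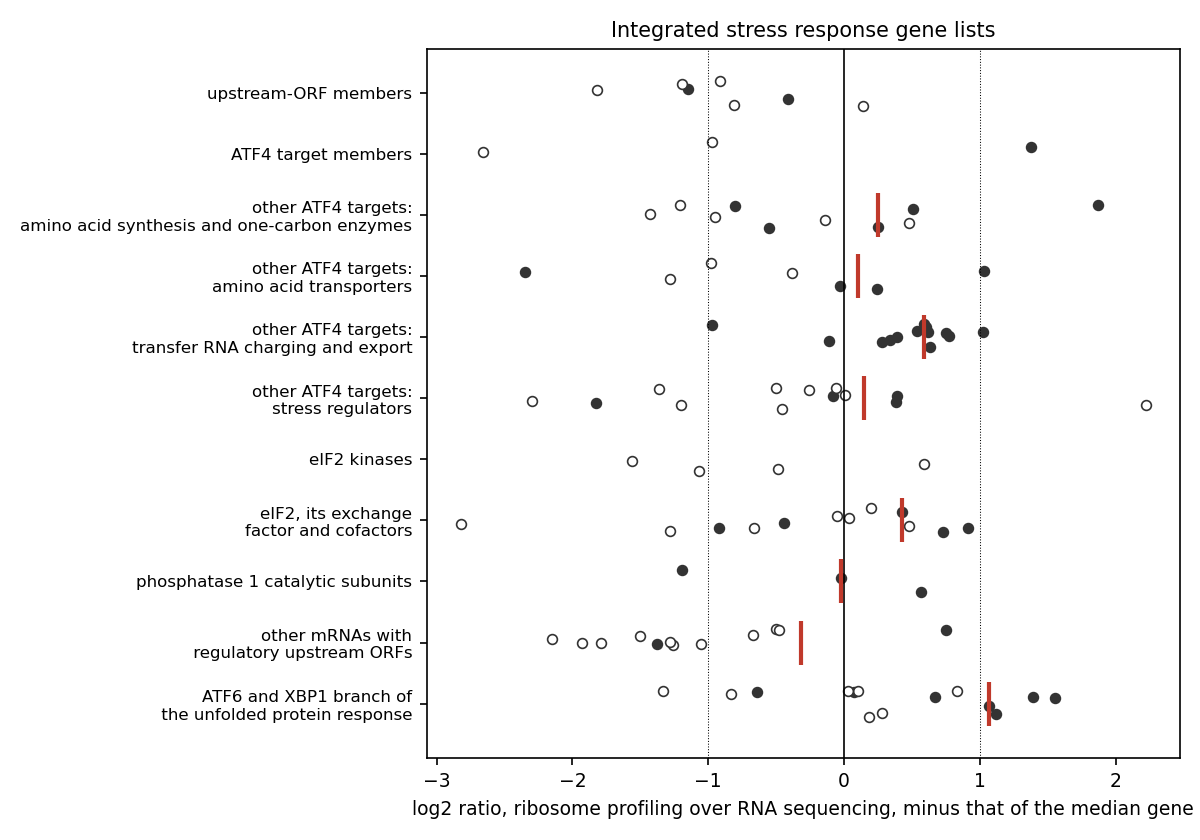
Log2 ratio (ribosome profiling divided by RNA sequencing) minus that of the median gene, for each gene of at least 1 mean FPKM in 11 lists; filled points have at least 10 mean FPKM, open points less, and the red line is the median of the filled points, drawn for the lists other than the 10 mRNAs. Open points lie mostly to the left of 0, and the list of transfer RNA charging and export has 11 of 13 points to the right. EPRS, SLC7A1 and CEBPB are drawn in more than 1 list.

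Upstream of ATF4, none of the 4 eIF2 kinases reached the filter. EIF2AK2, the double-stranded RNA sensor PKR, had 13.3 FPKM in ribosome profiling and 6.22 FPKM in RNA sequencing, and the heme-regulated kinase EIF2AK1 had 5.73 FPKM in ribosome profiling and 9.77 FPKM in RNA sequencing. EIF2AK4, or GCN2, which senses uncharged transfer RNA, had 3.58 FPKM in ribosome profiling and 9.29 FPKM in RNA sequencing. The endoplasmic reticulum kinase EIF2AK3, or PERK, had 1.56 FPKM in ribosome profiling and 1.75 FPKM in RNA sequencing. PKR was thus the 1 kinase of the 4 that was higher in ribosome profiling. The subunits of eIF2 were all tested. EIF2S1, which carries the phosphorylated serine, had 26.6 FPKM in ribosome profiling and 10.2 FPKM in RNA sequencing. EIF2S2 had 38.4 FPKM in ribosome profiling and 17.2 FPKM in RNA sequencing, and EIF2S3 had 26.8 FPKM in ribosome profiling and 27.9 FPKM in RNA sequencing. Of the list of eIF2, its exchange factor and cofactors, 5 of 13 were tested and none lay 2-fold from the median gene in either direction. The median of these 5 was 0.43. Over the 12 of at least 1 FPKM the median was -0.01, and 2 lay at least 2-fold below, EIF2D at -2.82 and DENR at -1.28, both named after their values were seen.

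Of 13 other mRNAs with regulatory upstream frames, 2 were tested, with a median of -0.31, which was 0.07 without centring. Of these 2, 1 lay at least 2-fold below and the other above the median gene. EPRS, SLC7A1 and CEBPB of this list are also in the lists of ATF4 targets above. Over the 12 of at least 1 FPKM, 8 of these were 2-fold or more below the median gene and none 2-fold or more above, with a median ratio of -1.27. That median was -0.72 when centred on all genes of at least 1 FPKM. The nearest share to read this count against is the 38.1% of rows from 1 to under 10 FPKM. That share leaves out tested genes, while the count takes in the 2 tested ones, AZIN1 and EPRS, of which AZIN1 is among the 8. The antizyme inhibitor AZIN1 had 11.5 FPKM in ribosome profiling and 23.7 FPKM in RNA sequencing, 2.59-fold below, and the synthetase EPRS had 23.7 FPKM in ribosome profiling and 10.3 FPKM in RNA sequencing, 1.68-fold above. CEBPB had 9.08 FPKM in ribosome profiling and 9.89 FPKM in RNA sequencing. The ATF6 and XBP1 branch of the unfolded protein response had 7 of 16 tested, a median of 1.07, 4 at least 2-fold above and none at least 2-fold below. Over its 14 genes of at least 1 FPKM the median was 0.23, with 4 at least 2-fold above and 1 at least 2-fold below, DNAJC3 at -1.33, named after its value was seen. Its chaperone HSPA5 had 186 FPKM in ribosome profiling and 47.5 FPKM in RNA sequencing, and HSP90B1 had 272 FPKM in ribosome profiling and 78.9 FPKM in RNA sequencing. The differences between these lists were not tested.

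The transcripts were last compared in structure, from 1 GENCODE release 29 coding transcript per gene. All 10 had at least 1 AUG before the main start codon, against 39.4% of the 2156 tested genes with a transcript, and 9 had 2 or more. The upstream-frame mRNAs were chosen for such frames, so their part of this count was fixed by that choice. The tested genes also average at least 10 FPKM, which only ATF4, DDIT3 and ASNS of the 10 reach. SLC35A4 had the most at 17 in a 5′ leader of 1107 bases, and ATF4 had 7 in 882 bases, a number that 3.25% of tested genes reached or passed. These counts hold for the chosen transcripts. Coding transcripts ran from 1419 to 2019 bases in ATF4 and from 683 to 3617 in SLC35A4, and AUGs of the others were not counted. The targets also carried them, with 3 each in TRIB3 and CEBPG and 2 in ASNS. In ATF4 2 of the 7, and in ATF5 and DDIT3 1 each, opened a frame that ran past the main start; ATF4 is known for such an overlapping frame. Over the tested genes with a transcript the median ratio varied little with this count, while low ratios were more frequent at 3 or more. The median was 0.07 in the 1307 genes with none and -0.06 in the 286 with 3 or more. Of these, 13.8% with none and 21.3% with 3 or more lay 2-fold or more below the median gene.

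**Figure D4:**
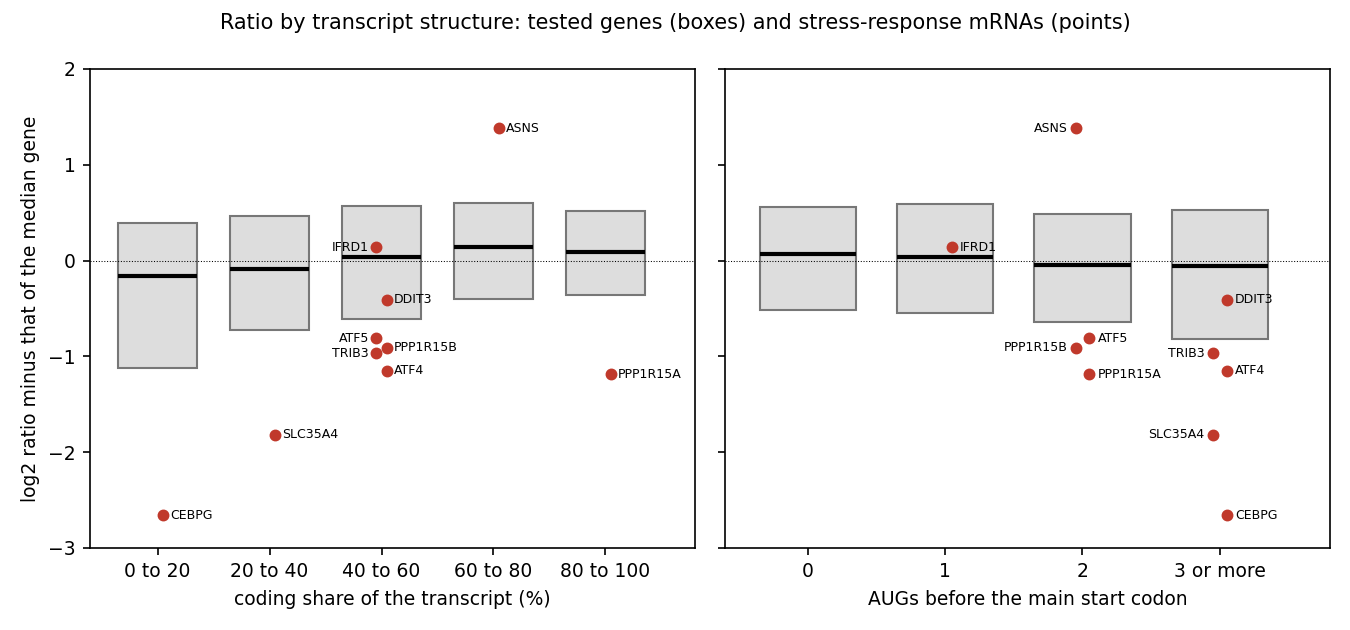
Log2 ratio minus that of the median gene by the coding share of the transcript (left) and by the number of AUGs before the main start (right); boxes span the quartiles of the 2156 tested genes with the median as a line, and red points are the 10 mRNAs. ASNS at 1.38 lies above both of its boxes, DDIT3 at -0.41 and IFRD1 at 0.14 lie within theirs, and the other 7, from ATF5 at -0.81 to CEBPG at -2.66, lie under both of theirs. The boxes hold genes of at least 10 mean FPKM, which of these 7 only ATF4 reaches. All rows from 1 to under 10 FPKM had a median ratio of -0.71.

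FPKM divides by the whole transcript length, while ribosomes translate the coding part, so the coding share was compared too. CEBPG had the smallest coding share of the 10, with 453 coding bases of 4109, or 11.0%, and its ribosome value was the second lowest. PPP1R15A had the highest at 85.2%, ASNS had 71.6%, ATF4 52.3% and SLC35A4 32.1%. These are shares of the chosen transcripts, and other coding transcripts reached 90.5% in ASNS, 74.4% in ATF4 and 45.7% in SLC35A4. Over tested genes the median ratio was -0.16 in the 177 genes with a coding share up to 20% and 0.14 in the 631 genes from 60% to 80%. With ribosome FPKM expressed per coding length, an alternative chosen after the data were seen, CEBPG had a ratio of -1.09 and ASNS 0.94. ATF4 had -1.17, SLC35A4 -1.42 and PPP1R15A -1.94 on that scale, so PPP1R15A lay below SLC35A4. ASNS minus ATF4 was then 2.10, against 2.53 per whole transcript. ASNS thus no longer lay 2-fold above the median gene, and CEBPG moved to -1.09, against -2.66 per whole transcript. The part of transcript structure in these ratios was not tested.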

How the data were processed

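Total RNA and ribosome-protected RNA of transfected SW13 cells were sequenced from both ends at 50 nt, per the labels' protocols. Listed without roles, per the submitters' processing notes, are bedtools 2.16.1, SAMtools 0.1.18, Bowtie2 2.0.0.6 and TopHat2 2.0.8b, with hg19 and mm10 as builds. The program that wrote the table is not given in the sources used here. The authors deposited FPKM per gene and library, a log2 ratio with its test statistic (both read as a score, with placeholders where a value is 0), and p-values and q-values.

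From these, log2((ribosome profiling FPKM + 1)/(RNA sequencing FPKM + 1)) was computed and centred on its median, 0.39, over 2734 genes averaging at least 10 FPKM, leaving out status FAIL and HIDATA. Standard errors are the authors' ratio over their statistic; the p-value matched a normal p within 0.001 for all 10 genes. Reads behind a value come from the step of low FPKM in transcripts over 2000 bases, 0.915 FPKM times kilobases in ribosome profiling and 0.59 in RNA sequencing; 60.9% and 67.5% of low values lay within 0.1 of a whole step, and lengths are those of GENCODE, not of the authors. The start of each locus was raised by 1, since end minus start equalled the RefSeq length in 2120 rows. Promoters are from RefSeq, GRCh38.p14. Transcripts were chosen by APPRIS rank, RefSeq match, then coding length. With 1 library per assay no p-value was computed. Centring and calling were tested on simulated data, with Python 3.11.15 and pandas 2.3.3.

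The genes and lists were chosen with earlier results of these data known. The text names all 10 genes, genes from those of highest mean FPKM (3 per list) or extreme ratio, and the tested genes nearest to ATF4. Alternatives were pseudocounts of 0.1 and 5, filters of 1 and 30 FPKM and none, status OK alone, 3 other centrings, rows of several symbols left out, and FPKM per coding length.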

Additional observations from a re-analysis of the deposited data

How the results depend on the processing

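Over 10 other settings, 98 of 100 ratios of the single mRNAs moved by less than the model error of that gene. The other 2 were both of ASNS, at 1.93 when the filter was 1 FPKM and 2.05 without one. There the median gene itself had -0.16 and -0.28 before centring, against 0.39. Apart from the pseudocounts, the settings change a single ratio only by subtracting another centre, the same for all 10 genes. No such shift reached the model errors of the genes other than ASNS, which ran from 0.88 to 1.62. The error of ASNS was the smallest, at 0.51. For those settings the count thus follows from the centres and the errors, and does not show that the ratios are stable. The count of mRNAs at least 2-fold below the median gene, 4, was 7 with a pseudocount of 0.1 FPKM, 2 each when the filter was 1 FPKM, was dropped, or centring was left out, and 1 over mRNAs of at least 10 mean FPKM alone. With ribosome profiling FPKM per coding length, 0 of the 10 lay at least 2-fold above. The counts over all tested genes, 358 above and 538 below, were 1681 and 2127 when the filter was 1 FPKM, 2332 and 2180 without one, 182 and 261 when it was 30 FPKM, and 645 above without centring. ASNS minus ATF4 ran from 2.10 to 2.60, but the filter and the centring cancel in this difference, so those settings could not move it. Of the list medians, 76 of 76 moved by less than the list's median model error. That error is wide enough for a median to change sign without counting as moved. With a filter of 30 FPKM the transporters went from 0.11 to -0.21, a value of SLC38A2 alone. The stress regulators went from 0.15 to -0.03, with only SQSTM1 and DDIT4 left. The median gene itself had 0.56 before centring with that filter, against 0.39. Settings per coding length and the 10 FPKM subset were chosen after the data were seen. Depth limits ATF5, PPP1R15A, TRIB3, CEBPG and SLC35A4, with fewer than 10 reads in ribosome profiling. No paired analysis was possible because each assay has 1 library.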
